A study of Homo sapiens with 22 samples.

Results

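The NFAT transcription factors and the calcineurin inhibitor RCAN1 were followed through 3 single-cell experiments and 1 chromatin experiment on melanoma cell lines. The 6 genes NFATC1, NFATC2, NFATC3, NFATC4, NFAT5 and RCAN1 were chosen by symbol, among 33538 genes in the first experiment and 36601 genes in the other two. They belong to a known pathway, and they were chosen with earlier results of these data known.

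NFATC1 to NFATC4 are calcium-regulated factors. A rise in cytosolic calcium activates calmodulin and the phosphatase calcineurin, which removes phosphates from NFAT proteins so that they enter the nucleus, where they often bind DNA beside AP-1, and kinases such as GSK3 and the casein kinases send them back to the cytoplasm. NFAT5 lacks the calcineurin docking region and answers to high salt instead, and RCAN1 binds and restrains calcineurin while being itself switched on by NFAT, so that its RNA is widely used as a readout of the pathway.

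The study split melanoma cells into a drug-susceptible state and a rare primed state that survives targeted therapy better, and the state of each cell was taken from the authors' labels. The first experiment holds untreated WM989 cells, a BRAF-mutant melanoma line, that carried lineage barcodes and had been sorted as mixed or EGFR/NGFR-high cells and grown on. It gave 12531 cells in 8 libraries, 4 in replicate r1 and 4 in replicate r2, and the labels of the cells do not give the sort of a library. The next experiment holds 1449 untreated cells of WM983B, another melanoma line, in 1 library. The treatment experiment holds 40021 barcoded WM989 cells that were left untreated or given recombinant TGFB1, an inhibitor of the TGF-β receptors (TGFBRi) or a PI3K inhibitor (PI3Ki), with 2 libraries each. The 2 libraries of a treatment are Mix and Primed in the sample labels but r1 and r2 in the labels of the cells, and these names could not be matched. ATAC-seq, which reads open chromatin, was done on WM989 cells sorted as EGFR-high, NGFR-high, EGFR-NGFR-high or Mix, with 3 libraries each. The study's methods name cells negative for both markers as the remaining sort, and Mix is read as these. The labels do not say so, and elsewhere the paper uses mixed for all live cells. All cells carry the background of these 2 lines. In the treatment tests p-values measure the spread left between libraries after terms for treatment and replicate, pooled over the treatments. In the ATAC tests they measure the spread between the libraries of a sort. Both kinds of spread may be technical. By the study's methods the 2 replicates of the treatment experiment were carried side by side from the sort of the barcoded cells through growth and treatment, and separate cultures are not given for the ATAC libraries.

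Values are unique molecular identifiers (UMIs) of a gene per 1e6 UMIs of all genes (CPM, counts per 1e6), summed over the cells named, and intervals in brackets are exact 95% Poisson intervals that cover counting error only. Median depth was 45287 to 111820 UMIs per cell in the 8 WM989 libraries, 66668 in WM983B and 13013 to 21720 in the treatment experiment. 19 cell barcodes of the first and 194 of the treatment experiment were found in 2 or more libraries. In the first WM989 experiment 6 melanocyte genes (MITF, SOX10, PMEL, MLANA, TYR and DCT) summed to 4880 CPM in drug-susceptible and 202 CPM in primed cells. There 4 primed markers (EGFR, NGFR, AXL and NT5E) summed to 29.3 and 316 CPM. The authors called and named the states from these counts and such markers, so these values describe the labels without testing them. Of 8 leukocyte genes, CD3D and MS4A1 were at 0 in drug-susceptible cells and the sum was 1.14 CPM, against 0.791 CPM in primed cells with CD3E and MS4A1 at 0. The sum of 7 fibroblast and endothelial genes was 35.0 CPM in drug-susceptible and 61.9 CPM in primed cells, with 22.8 CPM of PECAM1 and 13.5 CPM of PDGFRB in primed cells, and the part of such genes in the results below was not tested.

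The 6 genes lie on 5 chromosomes in the hg38 build. NFATC2 spans chr20:51386957-51562831 on the minus strand and RCAN1 chr21:34513142-34615113 on the minus strand. NFATC1 lies at chr18:79395856-79529325, NFATC3 at chr16:68084751-68229259, NFATC4 at chr14:24365673-24379604 and NFAT5 at chr16:69565094-69704666, all on the plus strand. NFATC2 and RCAN1 are read from several starts, and the 3′ UMI counts add up all transcripts of a gene.

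RefSeq promoter windows on GRCh38.p14, from 250 bases before to 50 bases after a transcript start, matched 5 of the 6 genes. The windows of NFATC2 and RCAN1, on which most of the results below turn, are shown 5′ to 3′ on the gene's strand for an upstream and a downstream start, with the NFAT core GGAAA and its reverse complement TTTCC in capitals. They lie at chr20:51562790-51563089, chr20:51542670-51542969, chr21:34615064-34615363 and chr21:34526773-34527072.
NFATC2 upstream start: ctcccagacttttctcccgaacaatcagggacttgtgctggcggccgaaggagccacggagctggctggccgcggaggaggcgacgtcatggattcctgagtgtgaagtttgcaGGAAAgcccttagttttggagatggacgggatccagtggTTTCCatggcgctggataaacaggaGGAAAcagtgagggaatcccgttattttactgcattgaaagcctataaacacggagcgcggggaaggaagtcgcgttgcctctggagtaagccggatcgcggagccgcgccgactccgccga
NFATC2 canonical start: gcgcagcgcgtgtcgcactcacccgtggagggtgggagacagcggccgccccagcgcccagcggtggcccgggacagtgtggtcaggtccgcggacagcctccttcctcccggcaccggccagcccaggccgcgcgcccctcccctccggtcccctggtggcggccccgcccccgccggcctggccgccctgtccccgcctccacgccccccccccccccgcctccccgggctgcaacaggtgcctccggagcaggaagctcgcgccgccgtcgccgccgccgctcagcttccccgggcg
RCAN1 canonical start: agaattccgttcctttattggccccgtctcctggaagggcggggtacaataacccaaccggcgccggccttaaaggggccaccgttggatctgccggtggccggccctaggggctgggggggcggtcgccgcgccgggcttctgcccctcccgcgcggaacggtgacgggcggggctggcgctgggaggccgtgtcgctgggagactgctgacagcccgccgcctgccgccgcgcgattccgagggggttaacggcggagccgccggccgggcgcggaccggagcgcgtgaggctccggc
RCAN1 downstream start: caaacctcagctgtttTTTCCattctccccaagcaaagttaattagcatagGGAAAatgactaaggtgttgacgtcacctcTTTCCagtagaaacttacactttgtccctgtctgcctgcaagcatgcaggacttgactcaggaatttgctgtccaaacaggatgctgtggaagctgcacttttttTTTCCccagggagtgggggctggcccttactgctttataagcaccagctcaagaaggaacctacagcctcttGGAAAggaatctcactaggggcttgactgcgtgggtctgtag
The upstream NFATC2 window held 3 matches to GGAAA and the canonical one 0. The canonical RCAN1 window held 0 matches, while the downstream window shown, next to the start of the short calcineurin-induced transcript, held 5, and also 1 match to the AP-1 motif TGANTCA. RCAN1 windows not shown held 1 GGAAA match each at chr21:34525418-34525717 and chr21:34524588-34524887, the former also 1 TGANTCA. Those at chr21:34614397-34614696 and chr21:34613794-34614093 held 0 of either. Across 35116 promoter windows 61.2% held GGAAA and 7.71% held TGANTCA on either strand, so that a match describes the letters and is not a binding site.

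NFATC2 was higher in drug-susceptible than in primed cells of the first WM989 experiment. The 9688 drug-susceptible cells held 36.1 CPM (35.6 to 36.6), the 2843 primed cells 3.46 CPM (3.20 to 3.73), a log2 ratio of -3.38 (SD 0.77 over the 2 replicates). The states were called by the authors from the same counts, and cells are not replicates, so that values by state and cluster are a description without a test. By the study's methods the cells of each sort were divided over 2 wells when they were loaded, so that these 8 libraries hold pairs of loads of the same cells and are not 8 independent samples. In drug-susceptible cells the 8 libraries held 50.2, 50.5, 31.9, 33.8, 29.9, 33.4, 36.3 and 36.5 CPM of NFATC2. In primed cells of the same libraries it was 2.97, 4.48, 7.09, 7.72, 1.28, 1.16, 8.92 and 4.16 CPM. The 2 sets of libraries did not overlap, and each library was lower in its primed cells. Libraries 1, 2, 5 and 6, in which 56.9% to 79.7% of cells were primed, had drug-susceptible levels 11.3 to 28.9 times those of their primed cells. In the other 4 libraries, with 6.85% to 9.42% primed cells, this ratio was 4.07 to 8.78.

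NFATC2 was detected with a UMI or more in 68.0% of the drug-susceptible but 11.2% of the primed cells, with median depths of 52835 and 58253 UMIs per cell. After thinning each cell to 10000 UMIs the shares were 28.0% and 2.95%. No cell type known to lack NFATC2 is in these data, and the lowest share of a cluster was 5.95%, in primed cluster 9, with 72036 UMIs per cell.

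**Figure D1:**
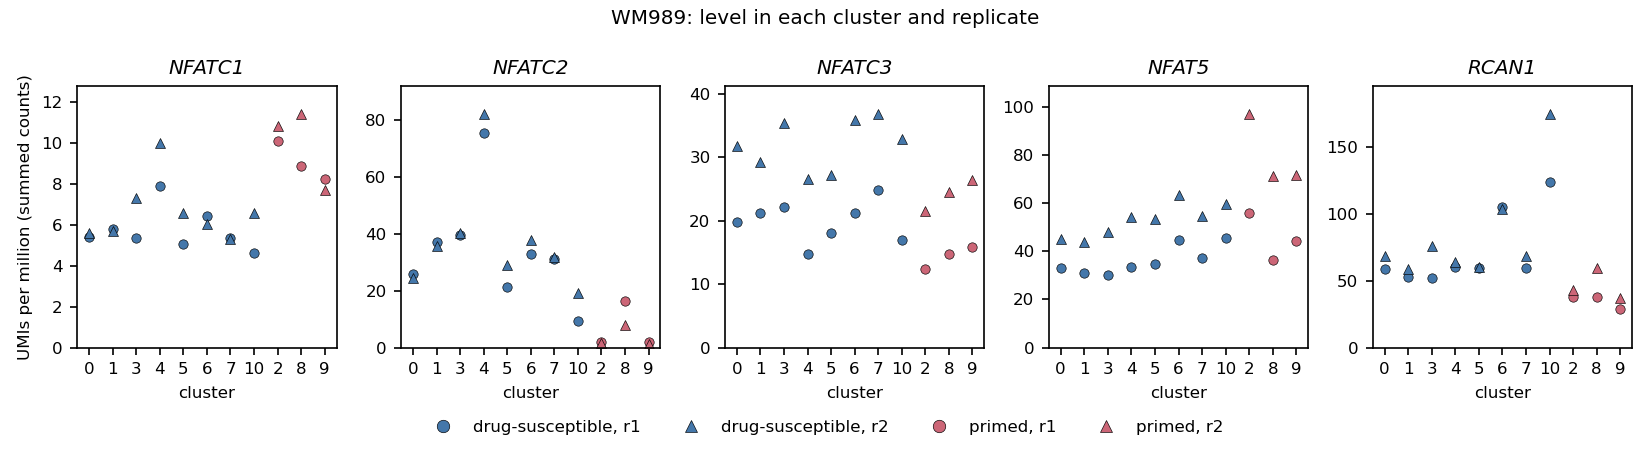
Level of 5 genes in CPM (linear y axes from 0) in each of the 11 WM989 clusters (x axis), with circles for replicate r1, triangles for replicate r2, blue for drug-susceptible and red for primed clusters. NFATC2 peaks in cluster 4 at 75.4 and 82.1 and is lowest in primed clusters 2 and 9, while RCAN1 peaks in cluster 10 and NFAT5 in cluster 2.

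Among the 11 clusters of WM989 NFATC2 ran from 1.40 CPM in cluster 9 to 77.3 CPM (75.1 to 79.6) in cluster 4, a 55.2-fold range. Cluster 4 holds 1202 drug-susceptible cells, 73.3% of them labelled G1. Next came clusters 3 and 1 with 39.9 and 36.5 CPM, and the drug-susceptible clusters 6, 7, 0 and 5 held 34.7, 31.6, 25.2 and 24.9 CPM. The intervals of clusters 1 and 6 overlapped, as did those of clusters 0 and 5. Drug-susceptible cluster 10, with 11.6 CPM, lay among the primed clusters, below cluster 8 with 13.1 CPM (11.8 to 14.4) and above cluster 2 with 1.70 CPM. In every library cluster 4 was above the other drug-susceptible cells, at 65.8 to 119.7 CPM against 22.2 to 40.6 CPM, so that the ranges did not overlap. The log2 ratio of cluster 4 to the other drug-susceptible cells was 1.32 (SD 0.05 over replicates).

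Primed cluster 8 differed from primed clusters 2 and 9 in the same direction in both replicates. NFATC2 was at 16.5 and 7.83 CPM in cluster 8, 1.92 and 1.45 CPM in cluster 2 and 1.84 and 1.09 CPM in cluster 9, in r1 and r2. The melanocyte genes summed to 659.7 CPM in cluster 8, against 106 and 131 CPM in clusters 2 and 9, and their part in the NFATC2 level was not tested. Cell cycle phase moved NFATC2 less than state did. Its level was 40.4, 34.4 and 35.4 CPM in drug-susceptible cells in G1, S and G2M and 3.61, 3.48 and 2.84 CPM in primed cells.

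The other calcium-regulated factors varied less across WM989. NFATC1, best known as the master factor of osteoclasts, was at 5.97 CPM in drug-susceptible and 9.71 CPM in primed cells, a log2 ratio of 0.70 (SD 0.03). It was higher in the primed cells of 8 of 8 libraries, at 8.13 to 12.5 CPM against 5.04 to 9.16 CPM, and these ranges overlapped. Its highest cluster was primed cluster 2 with 10.4 CPM and its lowest cluster 10 with 5.07 CPM. Cluster 4, where NFATC2 peaked, held 8.52 CPM of NFATC1, the highest level of the drug-susceptible clusters.

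NFATC3, a broadly expressed family member, was at 24.3 and 18.4 CPM in drug-susceptible and primed cells, with a log2 ratio of -0.40 (SD 0.10). It was lower in the primed cells of 8 of 8 libraries, but the replicates differed as much as the states. The drug-susceptible cells of the 4 r1 libraries held 19.3 to 22.9 CPM and those of the 4 r2 libraries 30.3 to 31.7 CPM, and the primed cells 12.1 to 14.9 and 21.7 to 28.7 CPM. By cluster it ran from 16.7 CPM in cluster 2 to 30.4 CPM in cluster 7. NFATC4 had 6 UMIs in drug-susceptible and 6 UMIs in primed cells, and 3 of the former came from a cell of cluster 4, so that no difference was detectable.

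NFAT5, the salt-responsive member, went the other way from NFATC2. Its level was 40.1 CPM (39.5 to 40.6) for drug-susceptible against 67.6 CPM (66.4 to 68.8) for primed cells, a log2 ratio of 0.75 (SD 0.18). It was higher in the primed cells of 8 of 8 libraries. As with NFATC3, r2 was above r1 in both states, at 49.5 against 34.2 CPM in drug-susceptible and 86.1 against 49.9 CPM in primed cells, so that r2 drug-susceptible and r1 primed cells held nearly the same level. Primed cluster 2 was highest with 75.4 CPM and cluster 3 lowest with 34.5 CPM.

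RCAN1 was lower in primed cells of the first WM989 experiment. Its level was 65.9 CPM (65.2 to 66.5) for drug-susceptible against 39.6 CPM (38.7 to 40.5) for primed cells, a log2 ratio of -0.73 (SD 0.08). The drug-susceptible cells of libraries 1 to 8 held 84.4, 74.2, 59.7, 60.4, 60.6, 79.9, 68.9 and 71.2 CPM. Their primed cells held 38.0, 37.8, 26.3, 28.1, 34.1, 45.2, 71.7 and 39.8 CPM. Primed cells were lower in 7 of 8 libraries, and library 7 stood apart. A cell of cluster 8 held 233 of the RCAN1 UMIs of its 196 primed cells and another held 175, and without the first of them library 7 was at 46.1 CPM, below its drug-susceptible cells. Cells with an RCAN1 UMI made up 87.8% in the drug-susceptible and 70.7% in the primed state, or 42.5% and 25.2% after thinning.

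By cluster RCAN1 was highest in drug-susceptible cluster 10, at 124 CPM in r1 and 175 CPM in r2, where NFATC2 was low. Cluster 6, with 0.268% of its cells in G1, followed at 105 and 104 CPM. The other drug-susceptible clusters lay between 55.3 and 63.5 CPM and the 3 primed clusters between 33.5 and 46.8 CPM. Cluster 4, the peak of NFATC2, held 61.4 CPM of RCAN1, inside the range of the other drug-susceptible clusters.

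**Figure D2:**
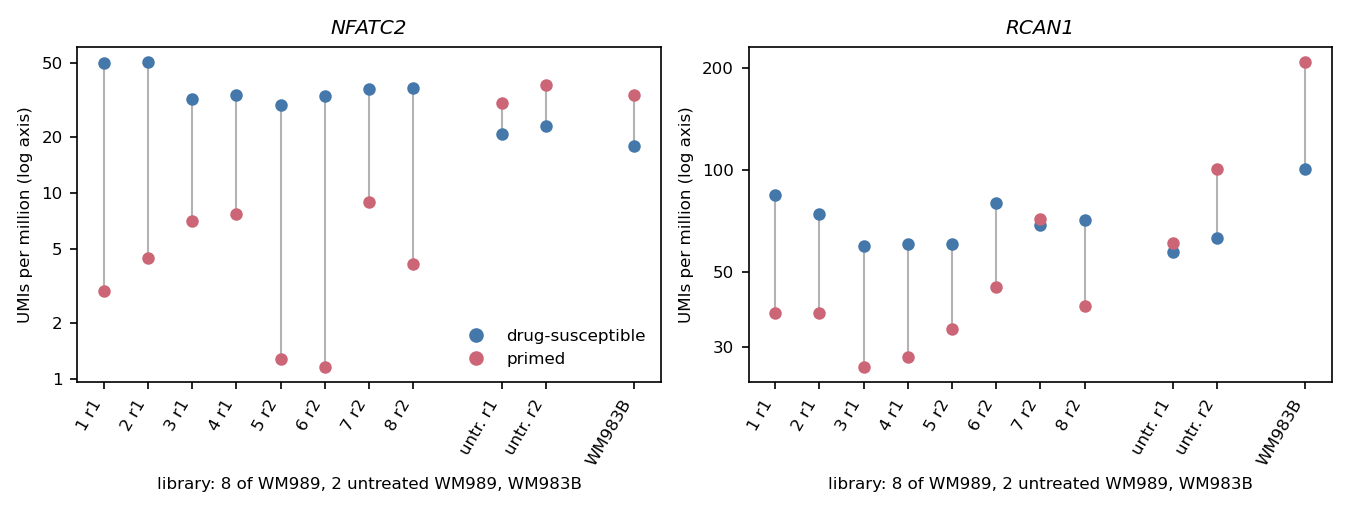
NFATC2 and RCAN1 in CPM (log y axes) in drug-susceptible (blue) and primed (red) cells of each library (x axis), with a grey line joining the states of a library. NFATC2 is lower in the primed cells of all 8 libraries of the first experiment and higher in those of the 2 untreated libraries (untr.) of the treatment experiment and of WM983B.

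The genes most like NFATC2 were searched for over 22 sums, 1 for each cluster and replicate, among 7539 genes. Pearson's r of log2(CPM + 1) was highest for GAS7 (0.961), ST8SIA1 (0.957), ERBB3 (0.950), SESN3 (0.945) and S100B (0.942), followed by RNF125, PMP2, SOX10, FXYD3 and TYR at 0.934 to 0.929. Of these 10 genes SOX10 and TYR are melanocyte markers, ERBB3 is a neuregulin receptor of neural crest cells, and S100B is a classical melanoma antigen. For 9 of the 10 the highest cluster was cluster 4, and SOX10 was highest in cluster 7. As the genes were picked for their r with NFATC2, which peaked in cluster 4, a shared peak largely follows from the selection. MITF, the master factor of melanocytes, had r = 0.875, MGP, a matrix protein, 0.816, and NT5E, a primed marker, -0.833. The other members were less alike, at 0.471 for RCAN1, 0.347 for NFATC3, -0.435 for NFATC1 and -0.542 for NFAT5. These sums share libraries, and all genes that separate the states correlate with each other.

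RCAN1 had another set of nearest genes. They were SNHG15 (0.891), PPM1K (0.878), WARS (0.871), C12orf73 (0.869) and ESCO1 (0.866), then ZC3H8, PSAT1, POLB, NOB1 and ZFAND5 at 0.862 to 0.855. All 10 were highest in cluster 10, as RCAN1 was, which again largely follows from their selection by r. WARS encodes tryptophanyl-tRNA synthetase and PSAT1 an enzyme of serine synthesis, and both are known targets of the amino acid stress factor ATF4. Neither of the 2 lists holds a gene of the other.

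The genes upstream of NFAT differed in both directions between the states of WM989. PPP3CA, the main catalytic subunit of calcineurin, was at 20.4 CPM in drug-susceptible and 37.6 CPM in primed cells, and PPP3CB at 9.89 and 13.5 CPM, while the regulatory subunit PPP3R1 was nearly level at 19.6 and 20.6 CPM. FKBP1A, the receptor of the calcineurin blocker tacrolimus, was at 691 and 1279 CPM. Of the kinases that return NFAT to the cytoplasm, 9 of 10 were higher in primed cells, by 1.09 to 1.58 times, which was not tested. The share of all genes higher in primed cells is not given here, so that this count is no result about the kinases. LRRK2 was lower at 2.07 and 0.328 CPM. The calcium channel ORAI1 was at 50.1 and 35.9 CPM while ITPR1, a calcium release channel, was at 5.59 and 11.5 CPM.

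Target genes also split. Of the known targets of NFATC1 to NFATC4, IL2, IL3, IL4 and IFNG had no UMI in any WM989 cell of this experiment. CXCL8, a chemokine, was at 0.442 CPM in drug-susceptible and 11.7 CPM in primed cells, and PTGS2, the inducible cyclooxygenase, at 0.623 and 10.7 CPM. ITGB3 was at 13.9 and 40.4 CPM and ENPP2 (autotaxin) at 6.27 and 16.5 CPM, whereas MYC was at 173 and 43.2 CPM. EGR3, CDK4, CTSK and ACP5 were also lower in primed cells, at 0.718 to 0.870 times their drug-susceptible level. EGR2, OSCAR, CSF2 and TNF were higher in primed cells, from 0.263 CPM or less in drug-susceptible cells. The listed targets of NFAT5 summed to 351 CPM in drug-susceptible and 2253 CPM in primed cells, most of it from AKR1B1. AKR1B1, which makes sorbitol, was at 209 and 1787 CPM, SLC5A3, which imports inositol, at 72.9 and 278 CPM, SLC38A2, an amino acid carrier, at 35.7 and 129 CPM, and SLC6A6, the taurine carrier, at 9.72 and 22.3 CPM. HSPA1B, another target, was level at 9.79 and 9.75 CPM, and the urea carrier SLC14A2 was at 0.709 and 0.723 CPM. The betaine carrier SLC6A12 was lower at 0.220 and 0.0624 CPM, from only 123 and 12 UMIs. Such target genes answer to many other factors, and these lists were put together with earlier results of these data known.

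In WM983B the order of the states was the reverse of that experiment for NFATC2 and RCAN1. Its 718 drug-susceptible cells held 17.8 CPM of NFATC2 (16.7 to 18.9), its 731 primed cells 33.6 CPM (32.0 to 35.3), a log2 ratio of 0.92. RCAN1 was at 101 CPM (98.0 to 103) and 208 CPM (204 to 212), a log2 ratio of 1.05. The intervals did not overlap for either gene, but they cover counting error in a library without replicate. Cells with an NFATC2 UMI made up 59.2% in the drug-susceptible and 73.1% in the primed state, at median depths of 72188 and 63758 UMIs, or in 37.2% and 53.8% after thinning to 30000 UMIs.

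The 4 clusters of WM983B show where these levels lie. NFATC2 was at 33.7 and 33.3 CPM in primed clusters 0 and 2, with overlapping intervals, and at 16.7 and 24.3 CPM in drug-susceptible clusters 1 and 3. Cluster 3 was closer to primed cluster 2 in its markers than cluster 1 was. The primed markers summed to 158 CPM in cluster 3, 184 CPM in cluster 2 and 67.0 CPM in cluster 1, and the melanocyte genes to 1057, 937 and 2206 CPM. RCAN1 was highest in primed cluster 0 with 223 CPM. Primed cluster 2 with 108 CPM (100.3 to 117) lay below drug-susceptible cluster 3 with 129 CPM (121 to 137), with intervals apart. It lay above drug-susceptible cluster 1 with 96.2 CPM, and its interval overlapped that of all drug-susceptible cells (98.0 to 103). The higher RCAN1 of the primed state thus rested on cluster 0, which held 640 of the 731 primed cells. In each of the 3 cell cycle phases both genes were higher in primed cells, and NFATC2 in G1 stood at 46.8 CPM (primed) against 23.1 CPM (drug-susceptible). By state the melanocyte genes summed to 2046 CPM in drug-susceptible and 745 CPM in primed cells, and SOX10 was at 208 and 192 CPM. The leukocyte genes summed to 12.1 and 21.9 CPM, with CD3E, CD3D and MS4A1 at 0 in both states, and the fibroblast and endothelial genes to 102 and 86.1 CPM.

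The remaining members differed little between the states of WM983B. NFATC1 was at 9.15 and 9.42 CPM, and NFATC3 at 9.74 and 10.4 CPM, with overlapping intervals. NFAT5 was higher in primed cells, at 27.6 CPM (26.2 to 29.0) and 34.4 CPM (32.7 to 36.0). NFATC4, nearly absent from WM989, was present in this line, with 317 and 355 UMIs or 5.88 CPM (5.25 to 6.56) and 7.27 CPM (6.53 to 8.07), whose intervals just touched. Of the NFAT5 targets AKR1B1 was at 193 and 203 CPM and SLC5A3 at 66.3 and 116 CPM.

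In the untreated WM989 cells of the treatment experiment NFATC2 was also higher in primed cells. The drug-susceptible cells of r1 and r2 held 20.8 and 23.0 CPM, and the 94 and 165 primed cells held 30.6 CPM (21.9 to 41.5) and 38.2 CPM (30.9 to 46.7). The log2 ratio was 0.70 (SD 0.13), opposite in sign to that of the first experiment on the same line. RCAN1 was at 61.1 CPM (48.6 to 75.9) in r1 and 101 CPM (88.9 to 114) in r2 primed cells, against 57.5 and 63.1 CPM in drug-susceptible cells, and its log2 ratio of 0.53 (SD 0.42) rested on r2, being 0.09 without it. Without the primed cell of r2 with the most NFATC2 UMIs that library was at 33.6 CPM. NFAT5 was higher in primed cells, with a log2 ratio of 0.67 (SD 0.04), as in the first experiment. Of the 259 untreated primed cells 248 belonged to cluster 10 of this experiment. Over all 807 cells of cluster 10, most of them treated, MGP stood at 190.4 CPM and the melanocyte genes summed to 1192 CPM. In the primed clusters of the first experiment, which was untreated, the melanocyte genes summed to 106 to 659.7 CPM. Their part in the different sign was not tested.

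The treatments are described first for NFATC2 and RCAN1. Over all cells NFATC2 was at 21.0 and 23.5 CPM in the untreated libraries r1 and r2, 20.02 and 19.95 under TGFB1, 30.2 and 30.6 under TGFBRi and 19.4 and 17.3 under PI3Ki. Both TGFBRi libraries were above all 6 others. RCAN1 was at 57.5 and 64.3 CPM in untreated cells, 45.8 and 54.1 under TGFB1, 74.8 and 85.6 under TGFBRi and 37.0 and 40.8 under PI3Ki. Its 4 treatments did not overlap, with TGFBRi highest and PI3Ki lowest.

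**Figure D3:**
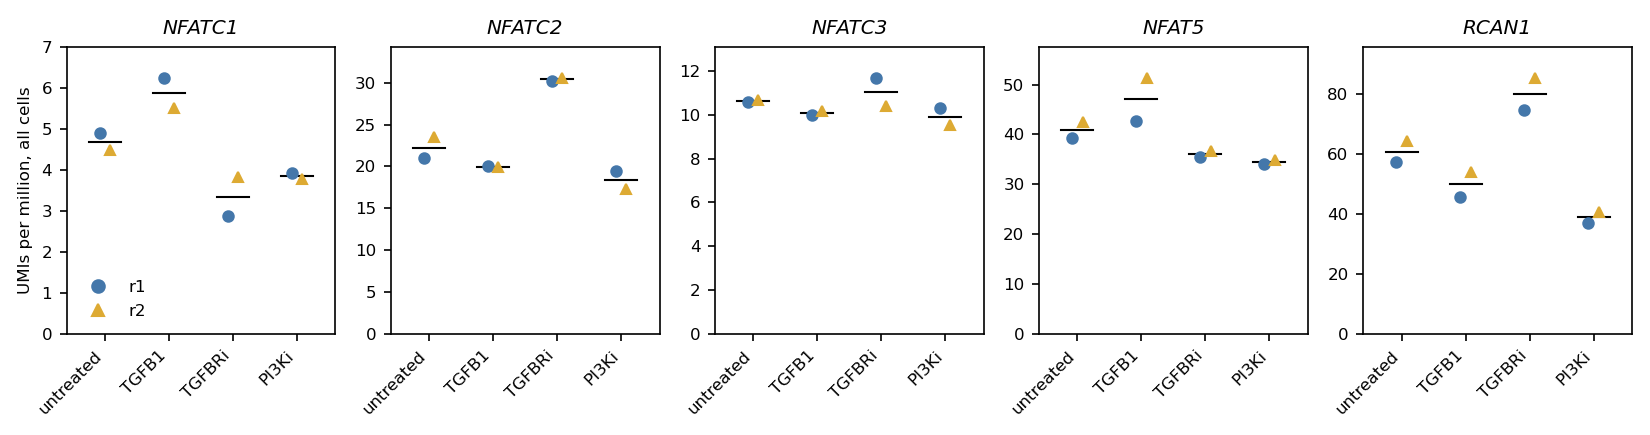
Level of 5 genes in CPM over all cells (linear y axes from 0) for each treatment (x axis), with a circle for replicate r1, a triangle for replicate r2 and a bar at the mean of both. The TGFBRi libraries are highest for NFATC2 (30.2 and 30.6) and RCAN1 (74.8 and 85.6), and the PI3Ki libraries are lowest for RCAN1 (37.0 and 40.8).

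TGFBRi, which blocks the receptor of TGF-β, raised NFATC2 by 0.47 ± 0.07 (SE) on the log2 scale, a 1.38-fold change (adjusted p = 0.000335, edgeR quasi-likelihood test over 18389 genes with a replicate term). RCAN1 rose by 0.41 ± 0.06 (adjusted p = 0.000309 by edgeR). NFATC1 fell, with a log2 change of -0.47 ± 0.12 (adjusted p = 0.0443 by edgeR), from 4.90 and 4.49 CPM to 2.87 and 3.82 CPM. This call was lost with DESeq2 (adjusted p = 0.129), with an equal number of cells per library (adjusted p = 0.0516 by edgeR) and without TGFBRi r1 (-0.21), untreated r1 (-0.38), untreated r2 (-0.56) or either PI3Ki library (-0.47). Without the replicate term NFATC2 still passed, while RCAN1 (adjusted p = 0.134 by edgeR) and NFATC1 (adjusted p = 0.344) did not. NFATC3 and NFAT5 did not pass, with log2 changes of 0.07 and -0.16. Thus 3 of 5 tested members were called, where 2.54% of all genes were. NFATC4, with 2 UMIs in the experiment, was not tested.

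In drug-susceptible cells alone the same 3 members were called. NFATC2 rose by 0.47 ± 0.07 (adjusted p = 0.000232 by edgeR), RCAN1 by 0.41 ± 0.06 (adjusted p = 0.000242) and NFATC1 changed by -0.48 ± 0.13 (adjusted p = 0.0445), with 2.81% of all genes called. Here too NFATC1 was lost with DESeq2 (adjusted p = 0.145), without the replicate term (adjusted p = 0.370 by edgeR), with upper-quartile scaling (adjusted p = 0.0528 by edgeR) and without TGFBRi r1 (-0.21), untreated r1 (-0.41), untreated r2 (-0.56) or either PI3Ki library (-0.48), and RCAN1 without the replicate term (adjusted p = 0.0942 by edgeR). In primed cells the estimates were 0.33 ± 0.21 for NFATC2 and 0.32 ± 0.15 for RCAN1, and 0 of 5 members passed by edgeR or by DESeq2, where 0.375% of genes were called and only RCAN1 had an unadjusted p under 0.05 (0.0393 by edgeR). A test of the difference between the states, chosen after seeing the data, gave -0.10 ± 0.19 for NFATC2 and -0.10 ± 0.13 for RCAN1 (adjusted p = 0.949 and 0.904 by edgeR, 0.546% of genes called). NFATC2 was above the untreated level in both replicates in 8 of 8 clusters compared and in 3 of 3 cell cycle phases, and RCAN1 in 7 of 8 clusters and 3 of 3 phases. Here and below, clusters and phases divide the cells of the same libraries, so that such counts are not independent and were not tested. The share of primed cells was 2.26% and 4.32% under TGFBRi against 2.26% and 4.47% untreated, and the melanocyte genes had 0 calls of 6 (median log2 change -0.07).

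PI3Ki lowered RCAN1. The change was -0.55 ± 0.06 on the log2 scale (adjusted p = 3.05e-06 by edgeR), a level 0.685 times that of untreated cells. It was the only member called of 5, with 12.7% of all genes called. The others had smaller estimates in the same direction, at -0.18 ± 0.07 for NFATC2 (adjusted p = 0.106 by edgeR), -0.18 for NFATC1, -0.14 for NFAT5 and -0.01 for NFATC3. NFATC2 passed without TGFBRi r1 (-0.18) or TGFBRi r2 (-0.19). In drug-susceptible cells RCAN1 changed by -0.54 ± 0.06 (adjusted p = 3.69e-06 by edgeR, 12.1% of genes called). In the 25 and 70 primed cells it was at 38.5 and 58.1 CPM, with a change of -0.76 ± 0.22 that did not pass (adjusted p = 0.0633 by edgeR, 1.78% of genes called), and 0 members were called there by edgeR or DESeq2 while RCAN1 alone had an unadjusted p under 0.05 (0.00122). The test of the difference between the states gave -0.22 ± 0.22 for RCAN1 (adjusted p = 0.904 by edgeR, 1.22% of genes called). RCAN1 in primed cells passed in the fits without TGFBRi r1 or TGFBRi r2 (-0.78 in both). RCAN1 was below untreated in both replicates in 9 of 10 clusters and 3 of 3 phases. The PI3Ki libraries had 43.6% and 44.1% of cells in G1 against 34.0% and 32.7% in untreated ones.

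TGFB1 lowered RCAN1 over all cells and gave small changes of other members. RCAN1 changed by -0.30 ± 0.06 (adjusted p = 0.000642 by edgeR), NFAT5 rose by 0.19 ± 0.06 (adjusted p = 0.0348) and NFATC1 by 0.31 ± 0.12 (adjusted p = 0.0482). NFATC2 did not pass at -0.17 ± 0.07 (adjusted p = 0.0848 by edgeR), and passed at the same estimate without either TGFBRi library (adjusted p = 0.0410 and 0.0384). With 29.0% of all genes called, 3 of 5 members is a share to be read against a broad response. The calls of NFATC1 and NFAT5 were lost with DESeq2 (adjusted p = 0.194 and 0.0755), without the replicate term (0.149 and 0.118 by edgeR) and in 5 of 8 fits without a library each, which included those without untreated r1 (log2 changes 0.40 and 0.19), untreated r2 (0.22 and 0.17) and either PI3Ki library (0.30 and 0.18). NFATC1 was also lost without TGFB1 r1 (0.16), with upper-quartile scaling (adjusted p = 0.0523 by edgeR) and with an equal number of cells per library (adjusted p = 0.102 by edgeR). NFAT5 was also lost without TGFB1 r2 (0.11) and without a low-count filter (adjusted p = 0.0559 by edgeR). The share of primed cells was 29.1% and 31.3% under TGFB1, so that sums over all cells mix levels within a state with the share of the states. RCAN1 was below untreated in both replicates in 4 of 9 clusters compared and above in 2, and below in 3 of 3 phases. Cells in G1 made up 44.1% of both TGFB1 libraries against 34.0% and 32.7% untreated, and the part of the cell cycle in these changes was not tested.

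Within states the TGFB1 result came apart. In drug-susceptible cells 0 of 5 members were called by edgeR or DESeq2, where 14.9% of genes were, and RCAN1 (-0.15 ± 0.06, unadjusted p = 0.0313 by edgeR) and NFAT5 (0.14 ± 0.07, unadjusted p = 0.0388) were the 2 with an unadjusted p under 0.05. In primed cells NFATC2 was at 30.6 and 38.2 CPM untreated and 15.8 and 17.9 CPM under TGFB1, and RCAN1 at 61.1 and 101 CPM untreated and 30.4 and 39.9 CPM under TGFB1. The ranges did not overlap. NFATC2 changed by -0.97 ± 0.19 (adjusted p = 0.000198 by edgeR) and RCAN1 by -1.13 ± 0.14 (adjusted p = 7.13e-08), 2 of 5 members with 13.3% of genes called. Without the untreated library r2 NFATC2 was estimated at -0.79 and did not pass (adjusted p = 0.106 by edgeR), and without any other library it passed at -1.07 to -0.89. The test of the difference between the states, chosen after seeing the data, gave -0.82 ± 0.17 for NFATC2 (adjusted p = 4.54e-05 by edgeR) and -0.96 ± 0.12 for RCAN1 (adjusted p = 7.75e-13), with 9.98% of genes called.

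**Figure D4:**
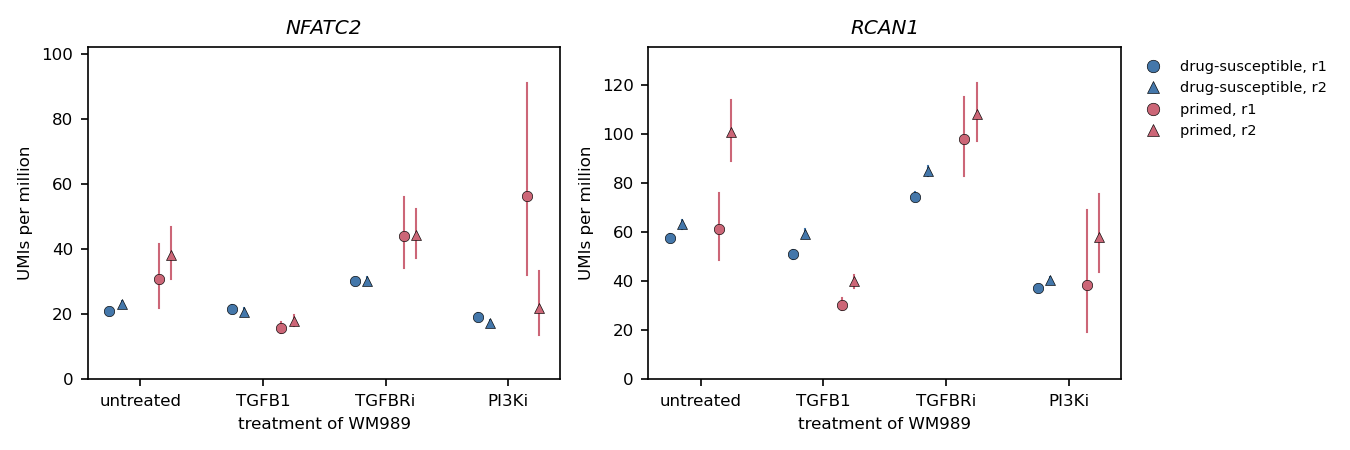
NFATC2 and RCAN1 in CPM (linear y axes from 0) in drug-susceptible (blue) and primed (red) cells of each treatment (x axis), with circles for r1, triangles for r2 and bars for exact 95% Poisson intervals. In primed cells TGFB1 lies below untreated for both genes (15.8 and 17.9 against 30.6 and 38.2 for NFATC2), and the interval of the 25 PI3Ki primed cells of r1 is the widest.

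The primed cells compared here were not the same clusters. Of the primed cells under TGFB1 3254 lay in cluster 4 of this experiment, of whose cells 99.5% came from TGFB1 libraries, and 80 in cluster 10, while 11 untreated primed cells lay in cluster 4. Summed over all treatments, cluster 4 held 16.2 CPM of NFATC2 and 32.9 CPM of RCAN1, the lowest RCAN1 level of a cluster. Cluster 10 held 40.3 and 97.7 CPM in such sums, the highest level of both genes over the 13 clusters. Among untreated cells cluster 10 was not the highest. Cluster 3 held 62.6 and 43.3 CPM of NFATC2 there in r1 and r2, and cluster 5 held 95.1 and 109 CPM of RCAN1. Their intervals were apart from those of cluster 10 in r1 and overlapped them in r2. Within cluster 10 NFATC2 was at 32.2 CPM (23.0 to 43.8) and 38.9 CPM (31.4 to 47.7) untreated and, in 29 and 51 cells with 17 and 29 UMIs of it, at 47.7 CPM (27.8 to 76.4) and 47.1 CPM (31.6 to 67.7) under TGFB1. These intervals overlapped in both replicates, so that no difference was detectable at this depth. RCAN1 was at 65.2 CPM (51.8 to 81.0) and 104 CPM (91.7 to 118) untreated and at 168 CPM (129 to 217) and 122 CPM (95.8 to 153) under TGFB1, with intervals apart in r1 and overlapping in r2. Over all treatments the melanocyte genes summed to 479 CPM in cluster 4 and 1192 CPM in cluster 10. In primed cells 5 of these 6 genes were lower under TGFB1 (median log2 change -0.94). A lower level within primed cells and a change in which primed cells are present cannot be told apart in the sums by state.

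The sums of other clusters of the treatment experiment also hold all treatments. NFATC2 was at 37.1 CPM (29.2 to 46.5) in cluster 12, whose interval overlapped that of cluster 10. It was at 27.2 CPM in cluster 3, of whose cells 94.9% came from TGFB1, and at 13.2 CPM in cluster 11. In the 56 and 59 untreated cells of cluster 3 it was at 62.6 CPM (47.0 to 81.6) and 43.3 CPM (31.5 to 58.2). The TGFB1 cells of cluster 3 held 25.1 CPM (23.3 to 26.9) and 26.1 CPM (24.0 to 28.3). RCAN1 was at 96.1 CPM in cluster 5 and 95.9 CPM in cluster 12, both within the interval of cluster 10, and at 36.2 CPM in cluster 6 and 35.6 CPM in cluster 11, clusters with mostly PI3Ki cells. NFAT5 ran from 13.4 CPM in cluster 11 to 62.7 CPM in cluster 10, and its level in cluster 4 was 53.1 CPM.

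TGFB1 and TGFBRi, the ligand and the blocker of its receptor, were also compared with each other. Over all cells NFATC1 differed by 0.78 ± 0.12 (adjusted p = 2.06e-05 by edgeR), NFAT5 by 0.35 ± 0.07 (adjusted p = 0.000208), NFATC2 by -0.64 ± 0.07 (adjusted p = 2.17e-07) and RCAN1 by -0.71 ± 0.06 (adjusted p = 4.16e-09). These 4 of 5 tested members were called where 33.6% of genes were, and the same 4 held in drug-susceptible cells, at 0.66, 0.31, -0.54 and -0.56, with 22.1% called. NFATC3 differed by -0.16 (adjusted p = 0.115 by edgeR). In primed cells 2 of 5 were called, NFATC2 at -1.30 ± 0.17 (adjusted p = 1.34e-07 by edgeR) and RCAN1 at -1.46 ± 0.14 (adjusted p = 1.89e-11), with 17.4% of genes called. NFATC1 at 0.51 ± 0.33 and NFAT5 at -0.08 ± 0.15 did not pass there (adjusted p = 0.332 and 0.801 by edgeR). Against untreated cells, TGFB1 and TGFBRi changed each of the 5 tested members in opposite directions over all cells. These comparisons share the 2 untreated libraries and are not independent, and several estimates did not pass, so that the signs are not counted as a result.

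Under TGFBRi calls in the wider pathway are to be read against the 2.54% of all genes called. Of 10 export kinases CSNK1E and CSNK1D rose (0.43 ± 0.06 and 0.42 ± 0.06, adjusted p = 0.000256 and 0.000453 by edgeR). Of 7 calcineurin and calmodulin genes 1 fell. Of 10 calcineurin modulators, 12 store-operated calcium genes and 8 NFAT5 targets 0 were called, and these lists are too short to show a share below that of all genes. Of 10 tested targets of NFATC1 to NFATC4 MYC fell (-0.31 ± 0.07, adjusted p = 0.0131 by edgeR). RCAN1, itself a known target but not counted in this list, was called upward. Of the 10 listed targets 0 were called upward, and this list too is too short to be set against RCAN1. Medians of the 6 pathway lists lay between -0.10 and 0.07, and that of all genes at 0.00, with 1.09% of all genes called higher and 1.45% lower.

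Under PI3Ki 4 of the 10 NFATc targets fell and 0 rose. They were CXCL8 (-2.13 ± 0.56, adjusted p = 0.0137 by edgeR, at under 1 CPM in all libraries), PTGS2 (-0.91), ENPP2 (-0.80) and ITGB3 (-0.79), and the median of the list was -0.40. Of all genes 5.83% were called higher and 6.83% lower. In drug-susceptible cells 3 of 10 targets fell and 0 rose, where 12.1% of genes were called, with ENPP2 and ITGB3 among them at -0.73 and -0.76. Of the other lists 1 of 10 modulators, 1 of 12 calcium genes and 2 of 8 NFAT5 targets fell, with no call for calcineurin, calmodulin or the export kinases. Primed markers, 4 of 4 of which fell, moved with them (median log2 change -1.58), and their part was not tested.

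Under TGFB1 the targets split, with 3 of 10 called higher and 4 lower, where 16.3% and 12.7% of all genes were. PTGS2 (1.06 ± 0.20, adjusted p = 0.000332 by edgeR) and EGR2 (1.05) rose from low levels, PTGS2 from 0.499 and 0.573 CPM to 0.913 and 1.36 CPM and EGR2 from 0.307 and 0.187 CPM to 0.525 and 0.507 CPM. MYC (-0.86 ± 0.07, adjusted p = 1.71e-09 by edgeR), CTSK (-0.71) and EGR3 (-0.42) fell. In these sums, in which the share of primed cells was larger under TGFB1, 3 of 4 primed markers were called higher (median log2 change 1.37) and 4 of 6 melanocyte genes lower (median -0.46), and their part was not tested. In drug-susceptible cells alone 2 of 10 targets were called higher and 3 lower, with 14.9% of genes called. EGR2 (from 0.261 and 0.154 CPM to 0.468 and 0.464 CPM) and ITGB3 (0.98 ± 0.08, adjusted p = 5.03e-09 by edgeR) rose there, while MYC (-0.66), CTSK (-0.48) and CXCL8 (-2.99 ± 0.66, adjusted p = 0.00263 by edgeR, at or below 0.322 CPM in all libraries) fell, and PTGS2 was not called. Over all cells, of 12 calcium genes 5 rose and 1 fell, of 7 calcineurin and calmodulin genes 2 rose and 1 fell, of 10 export kinases 1 rose and 2 fell, LRRK2 among them (-0.47), and of 8 NFAT5 targets 1 rose. Of 10 modulators 3 rose, among them MYOZ1 (1.95) and RCAN2 (1.43), a paralog of RCAN1, which both lay at or below 0.189 CPM in the untreated and TGFB1 libraries. In primed cells 4 of 9 tested NFATc targets fell, with ENPP2 at -2.39, CTSK at -1.79 and EGR3 at -1.70 (adjusted p at most 1.44e-06 by edgeR), and 0 rose, where 7.09% of genes were called lower and 6.21% higher. SLC5A3 was the only NFAT5 target called there, at -0.75.

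Chromatin at the 6 genes was read from peaks that the authors called in each ATAC library. Peaks seen in at least 3 of 12 libraries were merged to 151657 regions, of which 78177 had a peak in every library, and 91 lay within 10000 bases of a member. NFATC2 had 31 of them, RCAN1 20, NFATC3 15, NFATC1 12, NFAT5 10 and NFATC4 3. The 59 regions with a peak in all libraries were tested on log2 of the peak's fold enrichment with limma. In sorted bulk cells a region open in fewer cells and a region less open in each cell cannot be told apart.

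The middle 300 bases of 3 tested NFATC2 regions are shown, because these were called higher in NGFR-high and in EGFR-NGFR-high cells. They lie in an intron, on the plus strand of hg38 at chr20:51497750-51498049, chr20:51450988-51451287 and chr20:51447106-51447405, with GGAAA or TTTCC and the AP-1 letters TGANTCA in capitals.
NFATC2 region at 44.8 kb: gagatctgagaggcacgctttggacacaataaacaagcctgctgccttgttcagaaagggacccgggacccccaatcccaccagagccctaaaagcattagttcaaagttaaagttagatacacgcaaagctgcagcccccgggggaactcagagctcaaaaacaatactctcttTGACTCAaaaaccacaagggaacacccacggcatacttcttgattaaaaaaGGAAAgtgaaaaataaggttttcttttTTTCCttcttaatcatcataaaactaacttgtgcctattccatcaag
NFATC2 region at 91.6 kb: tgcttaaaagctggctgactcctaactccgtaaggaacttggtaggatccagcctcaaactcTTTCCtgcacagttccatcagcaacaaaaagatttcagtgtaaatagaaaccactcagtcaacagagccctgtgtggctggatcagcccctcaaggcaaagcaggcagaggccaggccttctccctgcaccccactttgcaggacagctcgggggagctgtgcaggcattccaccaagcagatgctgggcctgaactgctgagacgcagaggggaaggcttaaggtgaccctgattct
NFATC2 region at 95.5 kb: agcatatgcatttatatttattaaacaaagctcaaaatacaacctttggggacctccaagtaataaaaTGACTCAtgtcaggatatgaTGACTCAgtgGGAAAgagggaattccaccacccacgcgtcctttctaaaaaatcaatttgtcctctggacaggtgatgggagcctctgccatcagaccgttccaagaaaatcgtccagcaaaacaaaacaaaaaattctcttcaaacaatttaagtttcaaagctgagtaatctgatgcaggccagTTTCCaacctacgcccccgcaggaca
The window shown of the region 44.8 kb downstream of the canonical start, chr20:51496808-51498991, held 2 GGAAA matches and 1 TGANTCA. The window of that at 91.6 kb, chr20:51450665-51451610, held 1 GGAAA match and no TGANTCA. The window of that at 95.5 kb, chr20:51446369-51448143, held 2 of each. The rest of these regions was not searched. Over the 78177 regions 66.7% of such windows held GGAAA and 17.8% held TGANTCA.

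At 91.6 kb the fold enrichment was 11.2, 12.7 and 9.20 in the 3 Mix libraries and 10.2, 13.7 and 10.8 in EGFR-high. It was 24.3, 24.9 and 25.9 in NGFR-high and 17.6, 20.3 and 18.4 in EGFR-NGFR-high libraries. The 2 sorts that carry NGFR did not overlap with the other 2. Against Mix the log2 difference was 1.17 ± 0.17 in NGFR-high (adjusted p = 0.000767 by limma), 0.72 ± 0.17 in EGFR-NGFR-high (adjusted p = 0.0116) and 0.72 ± 0.14 for the mean of the 3 marker-high sorts (adjusted p = 0.00304). At 95.5 kb it was 37.6, 33.5 and 33.9 in Mix, 40.5, 47.3 and 38.7 in EGFR-high, 67.6, 54.2 and 46.5 in NGFR-high and 62.5, 48.2 and 48.1 in EGFR-NGFR-high. All 9 marker-high values were above the 3 Mix values, and the mean difference was 0.55 ± 0.12 (adjusted p = 0.00802 by limma).

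**Figure D5:**
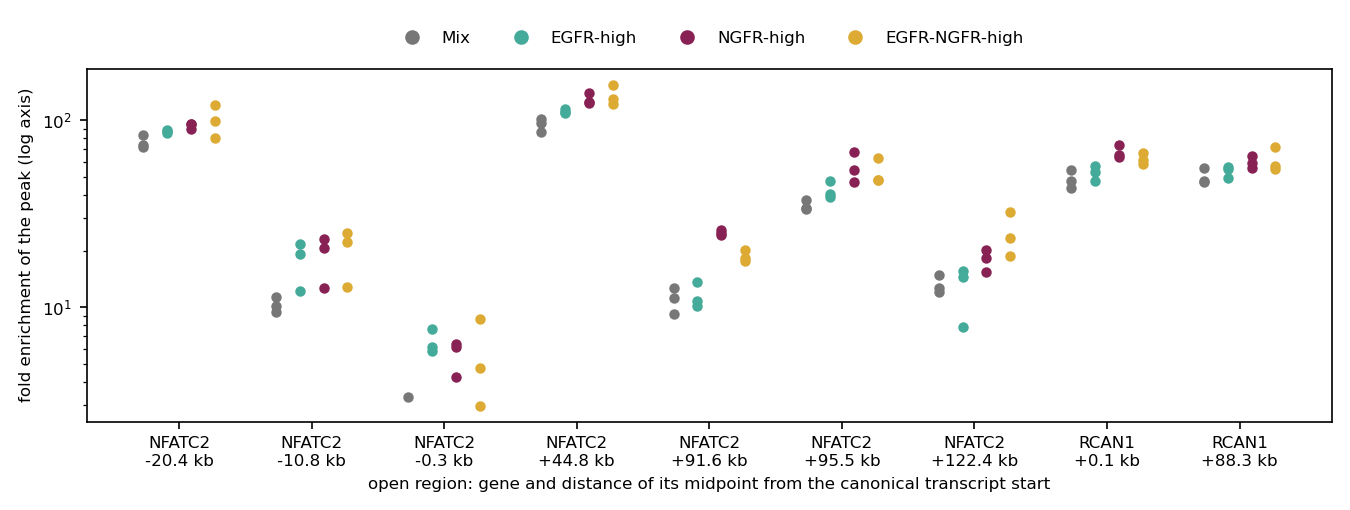
Fold enrichment of the peak (log y axis) in each of the 12 ATAC libraries at 9 open regions of NFATC2 and RCAN1 (x axis, distance of the region's middle from the canonical start in kb), coloured by sort. At 91.6 kb the NGFR-high and EGFR-NGFR-high libraries (17.6 to 25.9) lie above Mix and EGFR-high (9.20 to 13.7), and at the canonical NFATC2 start a single Mix library has a peak.

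For the marker-high sorts together 4 of 21 tested NFATC2 regions were higher than Mix and 0 lower. Beside those at 91.6 and 95.5 kb they were an intronic region 44.8 kb downstream (0.44 ± 0.11, adjusted p = 0.0129 by limma) and a merged region of 15582 bases between the upstream and the canonical start (0.87 ± 0.21, adjusted p = 0.0139). Over all members 5 regions were higher and 1 lower of 59, or 10.2%, against 16.0% of all regions tested (9.04% higher and 6.91% lower). In NGFR-high 3 were higher and 1 lower, in EGFR-NGFR-high 6 and 1, and in EGFR-high 0 and 1, where 12.2%, 12.7% and 5.83% of all regions were called. These backgrounds were 7.01% higher and 5.16% lower in NGFR-high, 7.35% and 5.33% in EGFR-NGFR-high and 4.01% and 1.82% in EGFR-high. The sixth higher region in EGFR-NGFR-high was an NFATC2 region at 122.4 kb (0.84 ± 0.23, adjusted p = 0.0278 by limma). Leaving out the libraries numbered 1, 2 or 3 of every sort left 2, 3 and 5 calls for the marker-high sorts together, 2, 1 and 5 in NGFR-high, 2, 0 and 4 in EGFR-NGFR-high and 0, 0 and 2 in EGFR-high. The region at 91.6 kb lost its call without the libraries numbered 3 (0.58) and that at 95.5 kb without those numbered 1 or 2 (0.53 in both). The merged region lost it without those numbered 1 (0.70) or 2 (0.81), and the region at 44.8 kb likewise (0.43 and 0.38).

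The starts of NFATC2 were open to different degrees. The upstream start, chr20:51561470-51564690, had peaks of 83.3, 73.5 and 72.1 in Mix and of 79.9 to 121 in the 9 marker-high libraries, and did not pass (0.33 ± 0.11, adjusted p = 0.0667 by limma). At the canonical start, chr20:51540810-51545163, a peak was called in 1 of 3 Mix libraries, with a fold enrichment of 3.30, and in 9 of 9 marker-high libraries, at 2.98 to 8.63. This region was not tested because peaks were lacking. A library without a peak fell below the caller's threshold, which gives no value for it. Of the 91 member regions 14 (15.4%) had no peak in any Mix library, and 1 had peaks only in Mix, where the shares of all 151657 regions were 13.3% and 0.193%.

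RCAN1 had 0 of 16 tested regions called for the marker-high sorts together, where 16.0% of all regions tested were, and this difference was not tested. At its canonical start the fold enrichment was 47.5, 43.4 and 54.2 in Mix and 47.4 to 73.5 in marker-high libraries, and the difference of 0.36 ± 0.12 did not pass (adjusted p = 0.0536 by limma). The downstream start, whose window held 5 GGAAA matches, had 55.6, 46.7 and 47.4 in Mix and 49.4 to 71.7 in the others (0.26 ± 0.11, adjusted p = 0.137 by limma). Another start at chr21:34558711-34560644 had 98.6, 85.3 and 106 in Mix and 86.6 to 113 in the others.

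Of the remaining members NFATC1 had 0 of 8 and NFATC3 0 of 9 regions called, too few regions to set apart from the 16.0% of all regions called. A region 20.5 kb downstream of the NFATC4 start, chr14:24388418-24388990, was lower in the marker-high sorts, at 8.96, 10.8 and 9.20 in Mix and 4.27 to 6.36 in the others (-0.82 ± 0.12, adjusted p = 0.000485 by limma), and it passed in each of the 3 sorts. It lies beyond the end of the gene, and NFATC4 RNA was nearly absent from WM989. A region downstream of NFAT5, chr16:69709530-69709902, was higher (0.61 ± 0.16, adjusted p = 0.0223 by limma), at 6.27, 8.48 and 5.32 in Mix and 7.34 to 14.9 in the others, which overlapped, and it lost its call without the libraries numbered 1 (0.50) or 3 (0.53).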

How the data were processed

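Counts of UMIs for each gene in each cell, deposited by the authors, came from 10x Genomics 3′ libraries and were made with Cell Ranger and filtered on mitochondrial percent and on low and high gene number, the latter to remove doublets, with the cluster, state, cycle phase, condition and replicate of each cell. No doublet caller was run here. For ATAC-seq the authors deposited MACS2 peaks called in each library on hg38, with a fold enrichment and -log10 of the q-value for each peak. Levels use the fold enrichment, and the -log10 value ranked peaks in an alternative.

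Counts were summed per library, and per library and state (at least 20 primed cells), and tested with edgeR 4.0.16 (quasi-likelihood, TMM, default low-count filter) in R 4.3.3, with treatment and replicate as terms. The replicate term follows the study, in which cells of a replicate were split over the treatments. Same-replicate libraries deviated together in all and in drug-susceptible cells (correlations 0.26 to 0.37 and 0.25 to 0.36, over 6 pairs each). In primed cells these correlations were weak, at 0.03 to 0.15, and the term was kept there as well. Log2 fold enrichment, centred on each library's median, was tested with limma 3.58.1. Calls use a Benjamini-Hochberg adjusted p under 0.05 over all genes or regions. DESeq2 1.42.0 was an alternative, and the interaction of treatment and state was added after seeing the data. Cells were thinned to 10000, 30000 and 5000 UMIs in the 3 experiments, and 33 cells of the last were below this. Scripts were tested on simulated data.

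Named pathway genes were, for each treatment comparison, up to 4 called genes per direction with the largest log2 change, and genes named beside these or by state alone were chosen after their values were seen. Genes named as alike had the highest Pearson's r. Genes were listed under calcineurin and calmodulin, their modulators, export kinases, store-operated calcium entry, NFATc targets and NFAT5 targets, beside lists of melanocyte, primed, leukocyte, and fibroblast and endothelial markers. The members and lists were chosen with earlier results of these data known. Cells of the first experiment could not be tied to a sort, and lineage barcodes were not used. The values of 1 listed pathway gene are not reported here.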

Additional observations from a re-analysis of the deposited data

Results flagged for a closer look

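RCAN1 in primed cells of library 7 of the first WM989 experiment stood at 71.7 CPM, far from the other 7 libraries, which held 26.3 to 45.2 CPM. A Dixon test was run on 10 groups of 8 libraries, which hold pairs of loads of the same cells and so are not independent, and some flags are due to chance. Without the cell with the most RCAN1 UMIs it was 46.1 CPM.

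The log2 ratio of NFATC2 in primed to drug-susceptible cells was 0.92 in WM983B and 0.70 in the untreated cells of the treatment experiment, against -3.38 in the first WM989 experiment, where it was negative in all 8 libraries. These differences were not tested. The ratio of NFATC3 was 0.09 in the single WM983B library and negative in all 8 WM989 libraries, which was not tested either.

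The effect of TGFB1 in primed minus that in drug-susceptible cells was -0.82 for NFATC2 and -0.96 for RCAN1 on the log2 scale (adjusted p = 4.54e-05 and 7.75e-13 by edgeR), in a test chosen after seeing the data. In cluster 10, which holds most untreated primed cells, the counting intervals of NFATC2 under TGFB1 and untreated overlapped in both replicates, and those of RCAN1 were apart, with TGFB1 higher, in r1 only.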

How the results depend on the processing

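Of the members called under TGFB1 over all cells (3), 1 remained in number with DESeq2 and 1 without the replicate block. Under TGFBRi the number went from 3 to 1 without the replicate block, over all cells and in drug-susceptible cells alike. Leaving out a library gave 1 to 4 called members for TGFB1, 1 to 2 for PI3Ki, 2 to 3 for TGFBRi and 4 to 5 for TGFB1 against TGFBRi over all cells, and in primed cells 1 to 2 for TGFB1 and 0 to 1 for PI3Ki. The calls of NFATC2 under TGFBRi and of RCAN1 under TGFB1 and PI3Ki over all cells held in each alternative run.

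Called ATAC regions in EGFR-high (1) became 3 without centring, 3 with the replicate block and 0 where a peak had to cover at least 50% of the region. With the 50000 strongest peaks per library, and with that coverage, the number was 2 and 1 in NGFR-high (4) and 2 and 2 in EGFR-NGFR-high (7). Leaving out replicates gave 2 to 5 for the marker-high sorts together, 0 to 2 in EGFR-high, 1 to 5 in NGFR-high and 0 to 4 in EGFR-NGFR-high. The main ATAC fit had no replicate term. Libraries with the same number in different sorts had weak correlations (median 0.09, highest 0.17, 9 of 18 over 0.1), against a median of -0.04 for other numbers. Whether the numbers pair the libraries is thus not settled. The replicate block gave 8, 3, 5 and 8 calls in the same order.

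The RCAN1 ratio in WM983B was 1.10 as a mean over cells and 1.13 after thinning. The NFATC2 ratio of untreated cells in the treatment experiment was 0.51 after thinning and 0.55 to 0.73 without a replicate, that of RCAN1 0.09 to 0.68, and that of cluster 4 for NFATC2 1.30 to 1.37.

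Signs turned for estimates that had not passed. NFATC3 became -0.001 and -0.02 under TGFBRi (all and drug-susceptible cells, without TGFBRi r1), with 0.14 and 0.13 at the other end of the fits without a library. Under PI3Ki it became 0.01 in both with upper-quartile scaling, and 0.03 and 0.01 without untreated r2 (lowest -0.04 and -0.05). Under TGFB1 in drug-susceptible cells NFATC2 became 0.02 without untreated r2, and NFATC1 -0.04 and NFATC3 0.002 without TGFB1 r1 (other ends -0.17, 0.38 and -0.12). In primed cells NFATC3 became 0.05 without a low-count filter and 0.08 without TGFB1 r1 under TGFB1, and NFATC1 0.01 under TGFBRi without untreated r1 (other ends -0.18 and -0.49). Under PI3Ki in primed cells NFAT5 became 0.05 with DESeq2, 0.02 without the replicate block, 0.07 without untreated r1, 0.01 without either TGFB1 library and 0.56 without PI3Ki r2, and NFATC2 0.66 without PI3Ki r2, which leaves 25 cells (other ends -0.28 and -0.78). The NFATC3 state ratio became -0.01 in WM983B after thinning, and 0.02 as a mean over cells and 0.07 without r2 in untreated cells (-0.22 without r1). The cause was not tested for any of these. Few counts limit NFATC4, with 12 UMIs in the first experiment, and the 25 and 70 primed cells under PI3Ki.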
